A study of Mus musculus with 8 samples.

Results

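Sorted brain endothelial cells from mouse pups carry some RNA of neural cell types, and the 38 genes described here are standard markers of 3 of these lineages. They comprise 12 astrocyte genes, 16 neuron genes and 10 genes of the oligodendrocyte lineage, taken by symbol from the 25700 gene identifiers counted in each library, and each of the 38 had a row. RNA was sequenced from endothelial cells isolated by flow cytometry from brains of C57BL/6 mice at postnatal day 6. The tested pups carried the genotype GLUT1EC-/- (KO, n = 4), a loss of the glucose transporter GLUT1 in endothelial cells, and the controls were wild type (WT, n = 4). Every pup gave 1 library of uncultured cells. The sources used here name neither the Cre line that removes the gene nor the surface markers of the sort, and no treatment is labelled.

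Astrocytes cover the vessels of the brain with end-feet, which carry the water channel Aqp4 and gap junctions, and they clear glutamate from synapses through the transporters Slc1a2 and Slc1a3. Neurons are marked by cytoskeletal, RNA-binding and synaptic proteins, and oligodendrocytes, which arise from precursors marked by Pdgfra, Sox10 and the Olig factors, build myelin with proteins such as Mbp and Mog. In the first postnatal week of the mouse, astrocytes and oligodendrocyte precursors are still multiplying and myelination of the brain has barely begun. A sort for endothelium is meant to leave these cells out, so their transcripts bear on its purity. In a bulk library fewer cells of a type and less RNA per cell cannot be told apart, and some of the 38 genes are also expressed outside their lineage.

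Promoter sequences are shown for the 2 astrocyte genes with the smallest p, Gfap and Fabp7, and for Gja1, which made up most of the astrocyte signal and did not move with them. Each runs over 300 bases, from 250 before to 50 after the annotated start, and was taken from RefSeq (GRCm38.p6). Gene coordinates given below are from GENCODE, where Gfap reaches 102900912, so its window lies inside that span. Capitals mark matches to TTGGC, the half-site of NFI factors, which act in astrocyte development, and to TTCNNNGAA, the site form of STAT factors, which act on the Gfap gene, on either strand. The first is Gfap at chr11:102897151-102897450 on the minus strand, with 1 STAT match, the second is Fabp7 at chr10:57784673-57784972 on the plus strand, with 1 NFI half-site, and the third is Gja1 at chr10:56377050-56377349 on the plus strand, with neither.
Gfap: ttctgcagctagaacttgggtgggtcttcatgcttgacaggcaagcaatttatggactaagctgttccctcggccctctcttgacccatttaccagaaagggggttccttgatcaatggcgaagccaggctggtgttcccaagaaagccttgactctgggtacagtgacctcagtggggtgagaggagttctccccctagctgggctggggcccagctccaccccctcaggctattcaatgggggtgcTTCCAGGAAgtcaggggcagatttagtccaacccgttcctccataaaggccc
Fabp7: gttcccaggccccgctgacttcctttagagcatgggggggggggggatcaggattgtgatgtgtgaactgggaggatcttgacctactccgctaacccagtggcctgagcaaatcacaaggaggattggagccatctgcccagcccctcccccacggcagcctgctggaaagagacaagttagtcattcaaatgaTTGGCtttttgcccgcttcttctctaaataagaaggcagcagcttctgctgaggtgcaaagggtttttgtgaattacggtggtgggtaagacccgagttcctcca
Gja1: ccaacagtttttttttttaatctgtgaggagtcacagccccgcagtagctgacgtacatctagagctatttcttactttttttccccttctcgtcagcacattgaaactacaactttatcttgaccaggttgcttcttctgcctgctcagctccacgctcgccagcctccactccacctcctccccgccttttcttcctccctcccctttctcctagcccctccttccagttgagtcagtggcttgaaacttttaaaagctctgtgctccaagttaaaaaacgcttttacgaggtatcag

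Promoters were found in this way for 28 of the 38 members. The STAT form stood in 3 of 11 astrocyte promoters (Gfap, Slc1a3 and Ntsr2), in 0 of 12 neuron promoters and in 0 of 5 oligodendrocyte promoters, while 8.30% of all 32851 promoters in the table held it. The NFI half-site stood in 5 of 11, 9 of 12 and 3 of 5, and in 46.7% of all promoters. These matches describe letters in a window of 300 bases and not bound sites.

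The libraries held between 20858070 counts, in KO pup 1, and 114007737 counts, in WT pup 2. Where a gene has a count of 0, up to 3 counts are allowed for, or 0.144 CPM in KO pup 1 and 0.0269 CPM in WT pup 2, a limit that takes in counting error alone. CPM are counts scaled to a common library total with TMM factors. The 12 endothelial markers summed to 15039 to 16848 CPM in KO and 15810 to 16888 CPM in WT. Transcripts of the deleted gene, Slc2a1, stood at a mean of 1507 CPM in KO (SD 89.6) against 3044 CPM in WT (SD 664), with no overlap. KO pup 1 stood apart: it had the fewest detected genes, 13624, and 11 of the 37 members with any count were at 0 there, against 0 to 4 members in the other libraries once all were thinned to the same total. WT pup 2 also stood apart, with mural markers (pericytes and smooth muscle) at 467.8 CPM in sum against 1354 to 2627 CPM in the other WT pups. The titles place WT pup 5 in the cage of all KO pups and the remaining WT pups in another, while the names of the deposited tables put WT pup 3 there in place of WT pup 5. Cage and genotype therefore differ by 1 WT pup only under either label. The share of counts from mitochondrial DNA, which moves with RNA quality, was 2.04 to 2.48% in KO and 1.66 to 1.89% in WT. The p-values set the difference between the genotypes against the spread of pups within each genotype. Cage was not a term in the main test.

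None of the members that could be tested passed the threshold between KO and WT. After the filter on low counts 28 of the 38 members were tested, 12 for astrocytes, 8 for neurons and 8 for the oligodendrocyte lineage. edgeR's quasi-likelihood test called 0 of the 28 at an adjusted p under 0.05, where it called 0.389% of all 14154 genes. At an unadjusted p under 0.05 there were 8 members, 6 higher in KO and 2 lower, against 11.1% of all genes, of which 5.52% were higher and 5.61% lower. For 0 of the 28 tested members did the KO and WT libraries separate without overlap, which 7.19% of all tested genes did, 3.77% higher in KO and 3.43% lower. A log2 fold change above 0 was found for 18 of the 28 members and for 50.3% of all tested genes. DESeq2 called 1 member, Fabp7, against 1.89% of its genes, and limma-voom called 0, against 0.509%. The counts of members are not independent, since many of them varied together from library to library. All 38 members together summed to 559 ± 86.2 CPM in KO and 559 ± 48.4 CPM in WT.

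**Figure D1:**
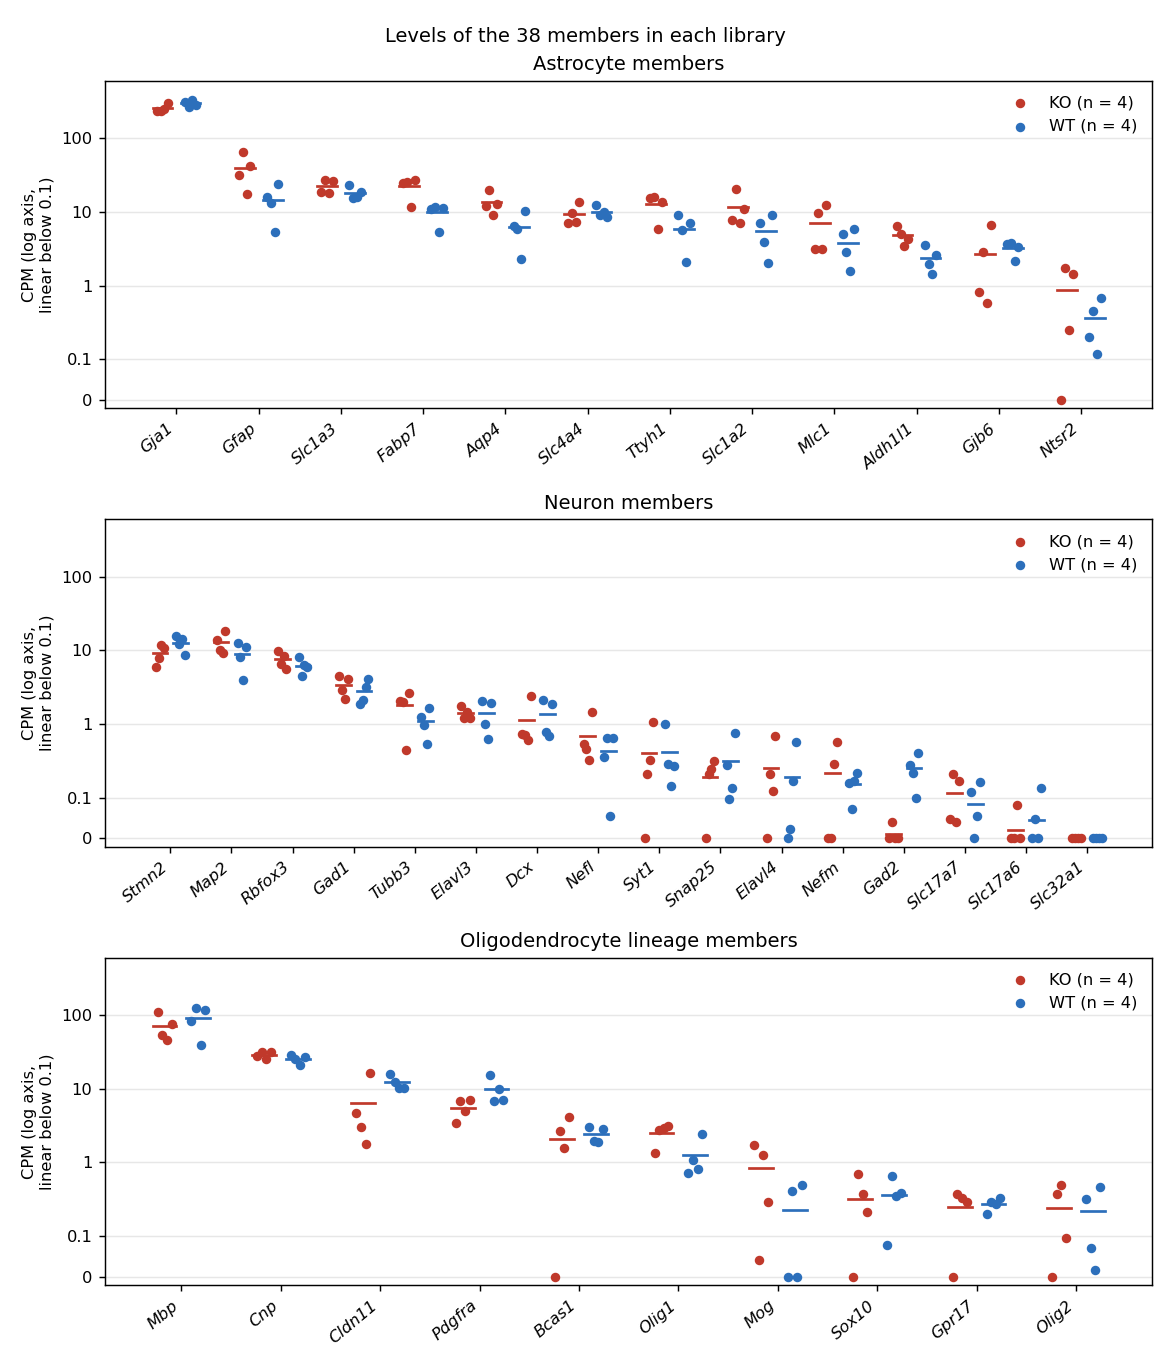
Level of each of the 38 members in each library, in CPM on a log axis that is linear below 0.1, with KO pups in red and WT pups in blue (4 points each, the bar is the mean) and genes ordered by mean level within each lineage. Gja1, Mbp and Gfap stand highest in their panels or next to it, and most neuron genes lie near or below 1 CPM.

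Gja1 alone made up 71.0% of the summed astrocyte CPM, and without it the astrocyte sum was 146 CPM in KO and 80.2 CPM in WT. The oligodendrocyte sums were 119 CPM in KO and 144 CPM in WT with all members. Without their largest member, Mbp, they were 47.5 CPM in KO and 52.5 CPM in WT. Gja1 (GRCm38 chromosome 10, 56377330 to 56402513, plus strand) encodes connexin 43, the main gap junction protein of astrocytes, which endothelial and mural cells make as well. It measured 235.1, 234, 247 and 303 CPM in KO pups 1 to 4, against 313, 269.8, 334 and 279.96 CPM in WT pups 5, 1, 2 and 3. The groups overlapped at their edges, with KO pup 4 above WT pups 1 and 3. The log2 fold change was -0.23 (SE 0.10, 95% interval -0.46 to -0.01) with an adjusted p of 0.43.

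The astrocyte members other than Gja1, Slc4a4 and Gjb6 were higher on average in KO, without passing the test. Gfap (chromosome 11, 102887336 to 102900912, minus strand), the intermediate filament of astrocytes, measured 31.3, 65.1, 17.8 and 41.5 CPM in KO pups 1 to 4 and 15.8, 13.4, 5.41 and 23.9 CPM in WT pups 5, 1, 2 and 3. The highest WT pup lay above the lowest KO pup, and the spread within each group was wide. Its log2 fold change was 1.43 (SE 0.44) with an adjusted p of 0.237. Fabp7 (chromosome 10, 57784881 to 57788450, plus strand), the fatty acid binding protein of radial glia and young astrocytes, measured 24.7, 25.9, 11.6 and 27.1 CPM in KO pups 1 to 4 and 10.8, 11.8, 5.27 and 11.4 CPM in WT pups 5, 1, 2 and 3. The KO pups other than pup 3 were above every WT pup, and KO pup 3 lay within the WT range. The log2 fold change of Fabp7 was 1.19 (SE 0.30, 95% interval 0.54 to 1.85), with an adjusted p of 0.148 in edgeR and 0.00399 in DESeq2.

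Aqp4, the water channel, measured 11.99, 19.9, 9.07 and 12.9 CPM in KO pups 1 to 4 and 6.46, 5.89, 2.26 and 10.1 CPM in WT pups 5, 1, 2 and 3 (log2 fold change 1.13, adjusted p 0.287). Slc1a2, the transporter that takes up most glutamate in the forebrain, measured 7.68, 20.4, 6.99 and 10.9 CPM in KO pups 1 to 4 and 6.97, 3.96, 2.02 and 8.95 CPM in WT pups 5, 1, 2 and 3 (1.08, adjusted p 0.405). For both genes KO pup 2 was the highest library and WT pup 2 the lowest. Slc1a3, the glutamate transporter of radial glia and cerebellar astrocytes, was more even, with 18.6, 26.9, 18.3 and 26.4 CPM in KO pups 1 to 4 and 23.3, 15.6, 15.7 and 18.6 CPM in WT pups 5, 1, 2 and 3 (0.31, adjusted p 0.583). Ttyh1, a chloride channel family member of glia, averaged 12.7 ± 4.59 CPM in KO and 5.94 ± 2.90 CPM in WT. Aldh1l1, the folate enzyme used as a general astrocyte marker, averaged 4.83 ± 1.30 CPM in KO and 2.38 ± 0.89 CPM in WT, and Mlc1, a membrane protein of perivascular end-feet, 7.12 ± 4.75 CPM in KO and 3.83 ± 1.96 CPM in WT (each SD over 4 pups). Adjusted p values of these 3 genes lay between 0.269 and 0.565.

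Of the remaining astrocyte members, Slc4a4 and Gjb6 had log2 fold changes below 0 (-0.09 and -0.23) and Ntsr2 above 0 (1.28). Slc4a4, a sodium bicarbonate cotransporter, averaged 9.39 ± 3.03 CPM in KO and 10.1 ± 1.78 CPM in WT. Gjb6 (connexin 30), the second gap junction protein of astrocytes, measured 0.82, 2.82, 0.57 and 6.59 CPM in KO pups 1 to 4 and 3.70, 3.74, 2.13 and 3.31 CPM in WT pups 5, 1, 2 and 3, so that the KO pups spanned the whole WT range. Ntsr2, a neurotensin receptor of astrocytes, was at 0 in KO pup 1 and reached 1.74 CPM in KO pup 2, and the WT pups lay between 0.12 and 0.68 CPM. In all, 9 of the 12 astrocyte log2 fold changes were above 0 and 3 below, and their median was 1.06, where the median of all tested genes was 0.00. The count of calls was 0 in each direction. Mural markers moved beside these genes, with sums of 1731 to 2619 CPM in KO and 467.8 to 2627 CPM in WT, and 8 of 10 of them had a log2 fold change above 0. Microglial markers summed to 718 to 1932 CPM in KO and 746 to 1286 CPM in WT, and 11 of 11 had a log2 fold change above 0. The mitochondrial share given above did not overlap between the genotypes. The part of these in the result was not tested. The astrocyte median was 0.36 with a cage term by the table names. By the titles it was 0.50, both with a cage term and among the pups of the KO cage alone, where WT has 1 pup. With KO pup 1 and WT pup 2 both left out, a choice made after seeing the data, it was 0.80.

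**Figure D2:**
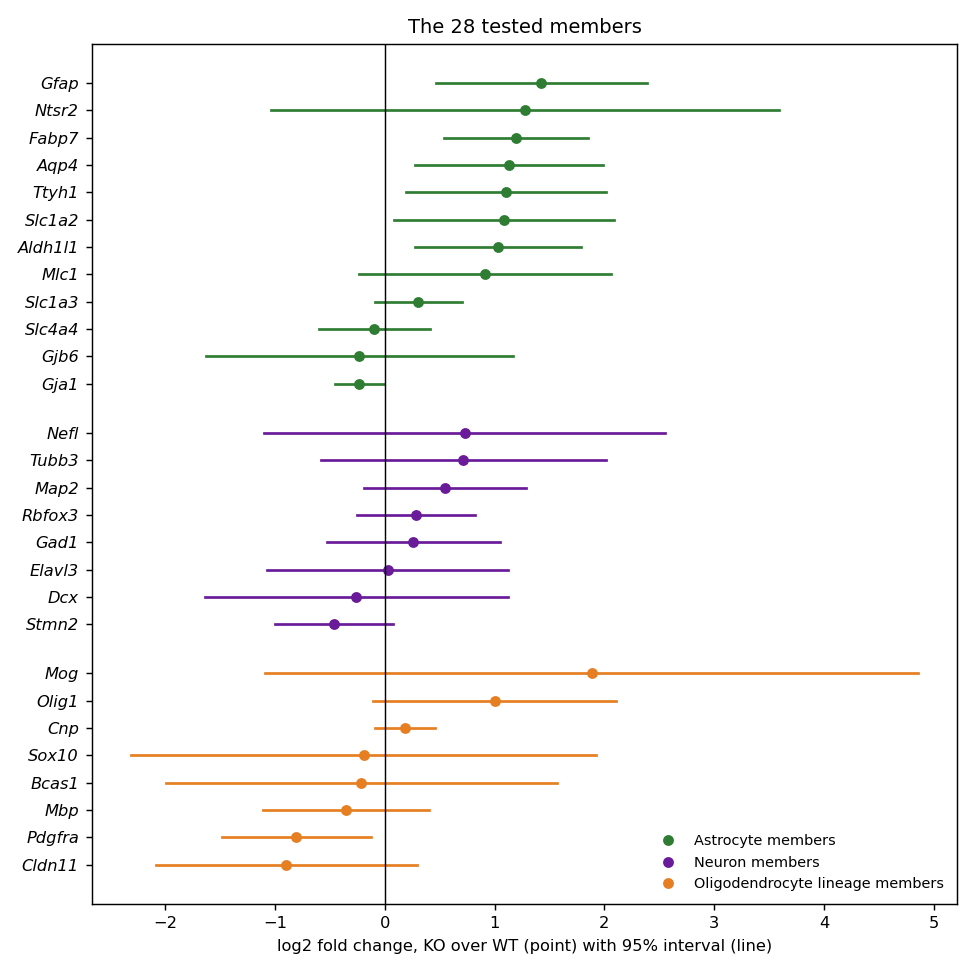
Log2 fold change of KO over WT (points) with the 95% interval of each (lines) for the 28 tested members, coloured by lineage and ordered within it. The astrocyte genes from Gfap to Mlc1 lie near 1, Gja1 lies at -0.23 and the neuron and oligodendrocyte genes lie on both sides of 0, and no member passed the adjusted threshold.

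Most neuron transcripts were scarce, and the most abundant ones did not move together. Of the 16 members, 7 had a mean above 1 CPM and 2 above 10 CPM, 8 were detected in every library, and 8 did not pass the filter on low counts. Per kilobase of exon the order of the mean level was Stmn2 (1.95 CPM per kb), Rbfox3 (1.18), Tubb3 (0.77) and Map2 (0.66), each below every endothelial marker listed, the lowest of which, Emcn, stood at 48.4 CPM per kb. The order of these 4 was not tested.

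Stmn2 (chromosome 3, 8509360 to 8561606, plus strand), a microtubule regulator of growing axons, measured 6.00, 7.87, 11.97 and 10.8 CPM in KO pups 1 to 4 and 15.8, 12.1, 14.1 and 8.78 CPM in WT pups 5, 1, 2 and 3. KO pups 1 and 2 were below every WT pup, and KO pups 3 and 4 were above WT pup 3. Its log2 fold change was -0.46 (SE 0.24) with an adjusted p of 0.534. Rbfox3 (chromosome 11, 118489762 to 118911597, minus strand), which encodes the nuclear antigen NeuN of mature neurons, measured 9.74, 6.51, 8.30 and 5.66 CPM in KO pups 1 to 4 and 8.19, 4.46, 6.25 and 5.88 CPM in WT pups 5, 1, 2 and 3. Its groups overlapped over most of their range (log2 fold change 0.28, adjusted p 0.731). Map2, the microtubule protein of dendrites, measured 13.96, 10.2, 9.15 and 18.3 CPM in KO pups 1 to 4 and 12.4, 8.25, 3.91 and 10.98 CPM in WT pups 5, 1, 2 and 3 (0.55, adjusted p 0.599). Tubb3, the tubulin of young neurons, measured 2.06, 1.99, 0.45 and 2.65 CPM in KO pups 1 to 4 and 1.26, 0.95, 0.53 and 1.65 CPM in WT pups 5, 1, 2 and 3 (0.72, adjusted p 0.718).

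Gad1, which makes the transmitter GABA, averaged 3.41 ± 1.07 CPM in KO and 2.85 ± 1.03 CPM in WT, and Elavl3, an RNA-binding protein of neurons, 1.41 ± 0.28 CPM in KO and 1.39 ± 0.69 CPM in WT. Elavl3 shares 256 exon bases with the predicted gene Gm49318 on the same strand. Dcx, the microtubule protein of migrating neurons, averaged 1.12 ± 0.88 CPM in KO and 1.37 ± 0.74 CPM in WT. The neurofilament genes Nefl and Nefm had 156 and 65 counts over all 8 libraries, and they share 1108 exon bases on opposite strands, so that without the strand setting reads in those bases cannot be told apart. Snap25 and Syt1, which drive vesicle release, had 78 and 121 counts in all, and Elavl4 had 78. The glutamate carriers of synaptic vesicles, Slc17a6 and Slc17a7, had 9 and 29 counts, and Slc32a1, the vesicular carrier of GABA, had 0 in each library, which allows up to 0.0269 CPM in the deepest.

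The GABA enzyme gene Gad2 fell under the filter. It had 0, 1, 0 and 0 counts in KO pups 1 to 4 and 7, 9, 11 and 15 counts in WT pups 5, 1, 2 and 3. The CPM did not overlap. The limits that a count of 0 allows in KO pup 1 (0.144 CPM) and KO pup 3 (0.123 CPM) lie above the level in WT pup 2 (0.0987 CPM). The order of KO pups 1 and 3 against WT pup 2 could therefore not be told at this depth. The level in KO pup 2 rests on 1 count. In the fit without a filter its p was 0.0141 and its adjusted p 0.342, and DESeq2 gave it an unadjusted p of 0.00854 and no adjusted one. It was singled out after its values were seen. Over the 8 tested neuron members 6 log2 fold changes were above 0 and 2 below, with a median of 0.27, and 0 were called in either direction.

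The oligodendrocyte lineage was represented mainly by Mbp and Cnp. Mbp (chromosome 18, 82475146 to 82585637, plus strand), the myelin basic protein gene, which also yields Golli transcripts in other cells, made up 61.9% of the lineage sum. It measured 110, 54.0, 45.6 and 75.7 CPM in KO pups 1 to 4 and 84.4, 125, 38.9 and 116 CPM in WT pups 5, 1, 2 and 3. The range was wide in both groups, and WT pup 2 was the lowest library of all. The log2 fold change was -0.35 (SE 0.34) with an adjusted p of 0.768. Cnp (chromosome 11, 100574904 to 100591729, plus strand), a phosphodiesterase of myelin that other cells express too, was steady, with 28.2, 31.3, 25.7 and 31.5 CPM in KO pups 1 to 4 and 29.0, 25.4, 21.1 and 27.4 CPM in WT pups 5, 1, 2 and 3. Its log2 fold change was 0.18 (SE 0.12) with an adjusted p of 0.642, and 154 of its exon bases overlap Dnajc7 on the other strand.

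Pdgfra and Cldn11 leaned lower in KO without passing. Pdgfra, the receptor of oligodendrocyte precursors and also of fibroblasts, measured 3.41, 6.84, 5.07 and 6.97 CPM in KO pups 1 to 4 and 15.4, 6.82, 9.89 and 7.08 CPM in WT pups 5, 1, 2 and 3. Only WT pup 1 lay within the KO range, and WT pup 5 was far above it (log2 fold change -0.81, SE 0.31, adjusted p 0.35). Cldn11, the claudin of myelin and of the arachnoid barrier, measured 4.70, 3.07, 1.76 and 16.3 CPM in KO pups 1 to 4 and 16.0, 12.5, 10.3 and 10.2 CPM in WT pups 5, 1, 2 and 3. Here KO pups 1 to 3 were below every WT pup and KO pup 4 above them all (-0.90, SE 0.54, adjusted p 0.595). Both genes are also in the list of fibroblast and meningeal markers, whose sum was 103.6 to 267 CPM in KO and 125 to 272 CPM in WT. Ttr, which defines choroid plexus epithelium, was at 10.54 to 276 CPM in KO and 352 to 1823 CPM in WT. Its level was highest in WT pup 5. Of the 8 choroid plexus and ependymal markers 4 had a log2 fold change below 0 and 4 above, with a median of -0.60. None was called, and 2 were lower in KO without overlap, as were 3.43% of all tested genes. Without Ttr these markers summed to 23.4 ± 16.6 CPM in KO and 25.7 ± 10.3 CPM in WT. The part of these cells in the 2 genes was not tested.

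The transcription factors and late myelin genes were scarce, at a few CPM or less. Olig1 measured 1.34, 2.74, 2.90 and 3.15 CPM in KO pups 1 to 4 and 0.71, 1.07, 0.83 and 2.47 CPM in WT pups 5, 1, 2 and 3 (log2 fold change 1.001, adjusted p 0.509), and WT pup 3 lay among the KO pups. Olig2, its partner in precursor specification, had 55 counts over all libraries, Sox10, the master regulator of the lineage, 117, Mog, a surface protein of mature myelin, 115, and Gpr17, a receptor of committed precursors, 88. Gpr17 shares 188 exon bases with Lims2 on the other strand. Mog had 36, 1, 31 and 12 counts in KO pups 1 to 4 and 0, 17, 0 and 18 counts in WT pups 5, 1, 2 and 3, with no order by genotype. Bcas1, a marker of oligodendrocytes that are starting to myelinate, was at 0 in KO pup 1 and between 1.55 and 4.11 CPM in the other libraries. Of the 8 tested members 3 log2 fold changes were above 0 and 5 below, with 0 called in either direction. The median was -0.20 and the mean 0.08, so they differed in sign. Without KO pup 1 the median was 0.20.

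The 3 lineages did not differ in sum between the genotypes by more than the spread between pups. Astrocyte members summed to 401 ± 65.8 CPM in KO and 379 ± 27.1 CPM in WT, neuron members to 39.3 ± 7.33 CPM in KO and 36.4 ± 7.33 CPM in WT, and oligodendrocyte members to 119 ± 30.2 CPM in KO and 144 ± 41.5 CPM in WT, each with its SD over 4 pups. The astrocyte sum without Gja1 was 127, 203, 84.3 and 171 CPM in KO pups 1 to 4 and 97.4, 74.4, 48.0 and 101 CPM in WT pups 5, 1, 2 and 3. KO pup 3 lay between WT pups on this measure and the other KO pups lay above them all. Without Mbp the oligodendrocyte sum was 47.5 ± 11.1 CPM in KO and 52.5 ± 8.63 CPM in WT. These sums were not tested, because the members were chosen with earlier results known.

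**Figure D3:**
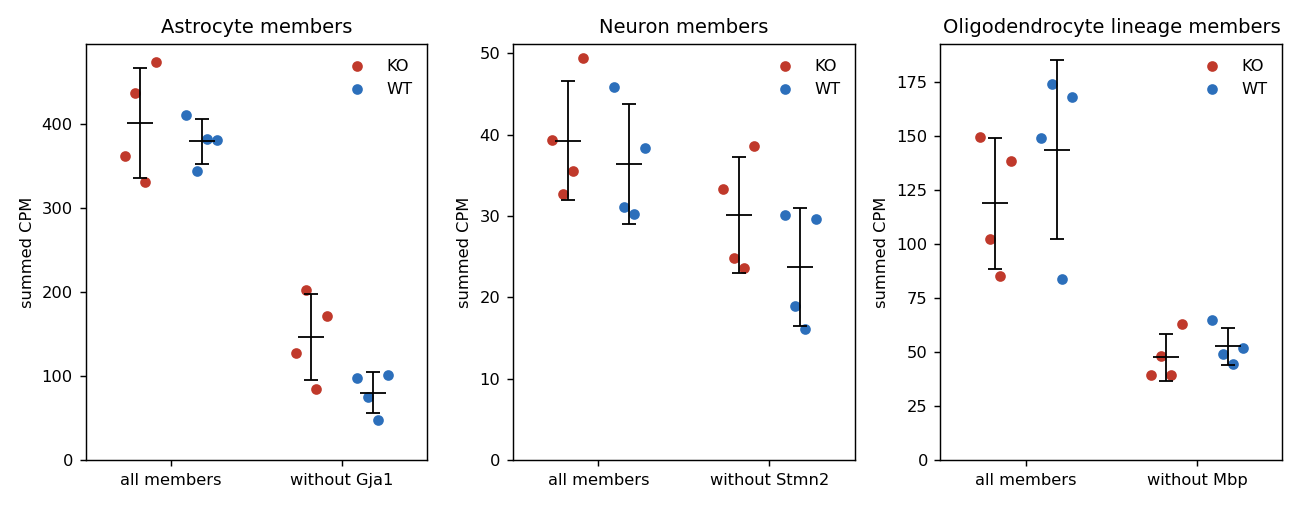
Summed CPM of each lineage in each library, with and without its largest member (Gja1, Stmn2 or Mbp), KO in red left of WT in blue, with the mean and SD of 4 pups in black. With all members the groups overlap in each lineage, and without Gja1 3 of 4 KO pups lie above the WT pups.

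After removing the genotype means, astrocyte genes varied together more closely than neuron or oligodendrocyte genes did, a difference that was not tested. Each tested member was expressed as its log2 CPM minus the mean of its genotype, and pairs were compared over the 8 libraries. The median Pearson r was 0.63 over the 66 astrocyte pairs, 0.15 over the 28 neuron pairs and 0.13 over the 28 oligodendrocyte pairs. Between lineages it was 0.42 for astrocyte with neuron genes (96 pairs), 0.25 for astrocyte with oligodendrocyte genes (96 pairs) and 0.11 for neuron with oligodendrocyte genes (64 pairs). All pairs share libraries, depth and scaling, and these values are descriptions without a test. Counting error is larger for genes with few counts. Such genes were Nefl (156 counts in all), Sox10 (117) and Mog (115), and Ntsr2 (171) among astrocyte genes. The part of counting error in the difference between lineages was not tested. The closest pair was Aqp4 and Gfap (r 0.96), followed by Gfap and Slc1a2 (0.95). Gja1 did not follow the other astrocyte genes (r -0.01 with their mean), whereas Mlc1 (0.97) and Gfap (0.90) did.

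Some members followed another list more closely than their own. With the mural markers Aqp4 had an r of 0.94, Ttyh1 0.89, Aldh1l1 0.74, Slc1a2 0.90 and Fabp7 0.81. With the other astrocyte genes they had 0.81, 0.74, 0.45, 0.87 and 0.79 in the same order. Gfap had 0.90 with either, and the remaining astrocyte genes had a lower r with the mural markers than with their own list. Among neuron genes Map2 (r 0.96 with the mean of the other neuron members), Dcx (0.83) and Tubb3 (0.72) moved together. Stmn2 (-0.34), Rbfox3 (-0.14) and Gad1 (0.19) stood aside. Tubb3 had 0.84 with the fibroblast markers. Nefl and Elavl3 had 0.82 and 0.77 with the mural markers, against 0.70 and 0.57 with the other neuron members. Among oligodendrocyte genes only Olig1 (0.78) exceeded 0.5. Cnp had an r of 0.37 with its own lineage and 0.94 with the mural markers. Cldn11 had an r of 0.00 with its own lineage, 0.83 with the choroid plexus and ependymal markers and 0.79 with the fibroblast markers, and Pdgfra had -0.04, 0.73 and 0.42 in the same order. Slc4a4 and Gjb6 of the astrocyte list reached 0.98 and 0.92 with the choroid plexus and ependymal markers, against 0.57 and 0.78 with the other astrocyte genes.

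**Figure D4:**
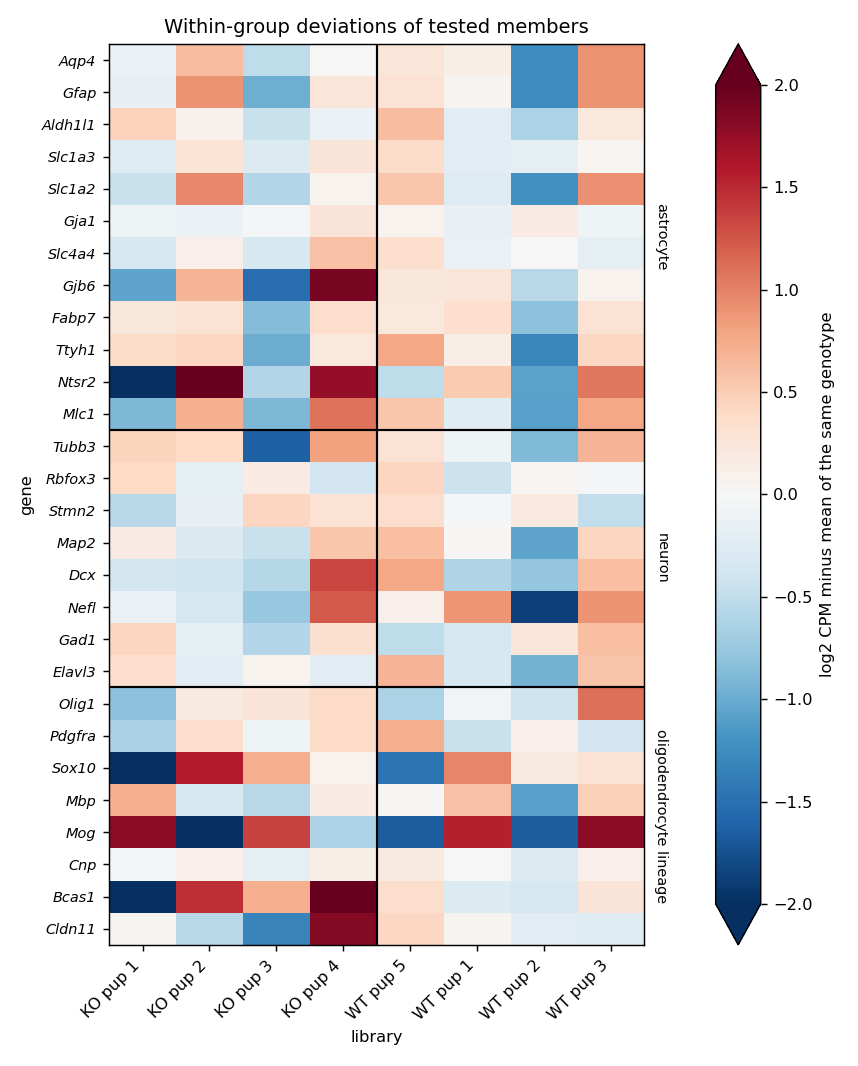
Log2 CPM of the 28 tested members minus the mean of the same genotype, in the 8 libraries, KO pups left of the line and WT pups right of it, grouped by lineage (colour scale cut at 2 in either direction). WT pup 2 and KO pup 3 are low for most astrocyte genes. Among the oligodendrocyte rows KO pup 4 is the highest KO pup for 5 of 8, and no WT pup is lowest for more than 3.

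The low libraries were the same for several genes. In WT, pup 2 held the lowest level of 9 of 12 astrocyte and 5 of 8 neuron members, and in KO, pup 3 held the lowest level of 8 of 12 astrocyte and 5 of 8 neuron members. For oligodendrocyte members KO pup 1 was lowest for 4 of 8, and no WT pup was lowest for more than 3. KO pup 4 was the highest KO pup for 5 of these 8 and the lowest for 0.

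As scores, the mean log2 CPM of the tested members of a lineage, astrocyte and neuron levels went together over the 8 libraries. The astrocyte score was 2.90, 3.94, 2.69 and 3.91 in KO pups 1 to 4 and 3.06, 2.76, 1.97 and 3.18 in WT pups 5, 1, 2 and 3. The neuron score was 1.58, 1.32, 1.07 and 1.98 in KO pups 1 to 4 and 1.61, 1.16, 0.64 and 1.67 in WT pups 5, 1, 2 and 3. Pearson r between them was 0.76 and Spearman rho 0.76, and r was 0.75 for deviations from the genotype means and 0.89 without KO pup 2 and WT pup 2, which lay farthest from the median astrocyte score. The groups of 4 were too small for a value within each genotype or cage. The oligodendrocyte score was 1.03, 1.77, 1.85 and 2.29 in KO pups 1 to 4 and 1.64, 2.20, 1.43 and 2.32 in WT pups 5, 1, 2 and 3. In KO pup 1 this score took in Sox10 and Bcas1 at 0 counts, and in WT pups 5 and 2 it took in Mog at 0. The astrocyte score of KO pup 1 took in Ntsr2 at 0 counts. The summed oligodendrocyte CPM was 149, 102, 85.1 and 139 in KO pups 1 to 4, highest in KO pup 1. The oligodendrocyte and astrocyte scores had an r of 0.41 (rho 0.38). It was 0.61 for deviations from the genotype means and 0.41 without KO pup 2 and WT pup 2. The oligodendrocyte and neuron scores had an r of 0.32 (rho 0.45) and 0.40 for deviations. The order of these pairs depended on the measure. With the log2 of the summed CPM, r was 0.54 for astrocytes with neurons and 0.06 for astrocytes with the oligodendrocyte lineage. With sums that leave out the largest member, taken as deviations, the astrocyte score had an r of 0.65 with neurons and 0.70 with the oligodendrocyte lineage. The relation of neuron and oligodendrocyte scores rested on single libraries, since r was -0.24 without KO pup 4 and WT pup 2, which lay farthest from the median neuron score, and 0.66 without KO pup 1. The difference between these correlations was not tested.

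Mural markers ran beside the astrocyte and neuron scores, but how closely depended on the measure. The r with the mural score was 0.87 for astrocytes (rho 0.90) and 0.88 for neurons (rho 0.90). It was 0.40 for the oligodendrocyte lineage (rho 0.52). With the log2 of the summed CPM these r were 0.34, 0.64 and 0.51 in the same order. With sums that leave out the largest member they were 0.74, 0.80 and 0.47. In deviations from the genotype means, 9 of 12 astrocyte, 5 of 8 neuron and 2 of 8 oligodendrocyte members had an r above 0.5 with the mural score, as had 13.0% of all tested genes. Other cell types ran beside the lineages too. In deviations from the genotype means the astrocyte score had an r of 0.80 with fibroblast and meningeal markers, 0.72 with choroid plexus and ependymal markers, 0.48 with erythroid markers and 0.27 with microglial markers. The neuron score had 0.74, 0.56, 0.80 and 0.24 in the same order, and the oligodendrocyte score 0.26, 0.38, 0.29 and 0.67. With the endothelial markers the r in deviations was -0.42 for astrocytes, -0.49 for neurons and -0.84 for the oligodendrocyte lineage. With the log2 of the summed CPM these were -0.28, -0.47 and -0.42. On that measure the oligodendrocyte lineage had 0.70 with fibroblast and meningeal markers and 0.21 with choroid plexus and ependymal markers. It had 0.52 with erythroid markers and -0.06 with microglial markers. The part of these cell types in the scores was not tested. For all of these the libraries, the depth and the scaling are shared. Pdgfra and Cldn11 are in both the oligodendrocyte and the fibroblast list. The r of 0.26 and 0.70 between these lists therefore take in shared genes. Without KO pup 2 and WT pup 2 the r of astrocyte and mural scores was 0.81.

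**Figure D5:**
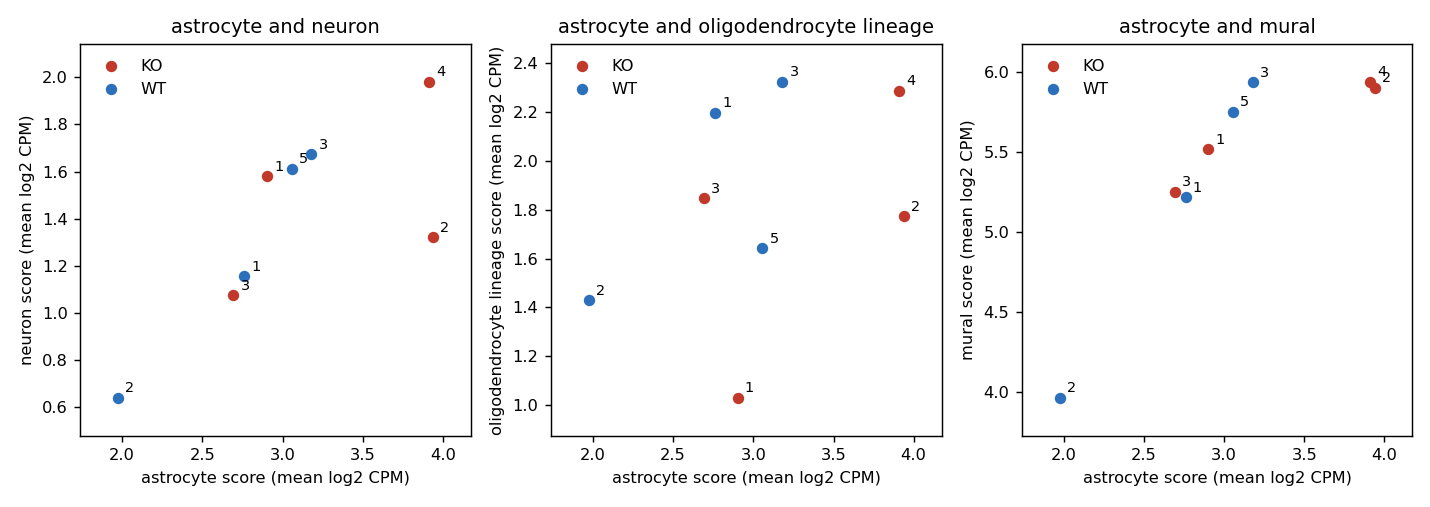
Neuron, oligodendrocyte lineage and mural scores against the astrocyte score, each the mean log2 CPM of the tested members of a list, for 4 KO pups (red) and 4 WT pups (blue) labelled by pup number. WT pup 2 is lowest for the astrocyte, neuron and mural scores, and KO pup 1 is lowest for the oligodendrocyte score. In KO pup 1 Sox10 and Bcas1 had 0 counts, while its summed oligodendrocyte CPM was the highest in KO.

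Further genes of the same cell types, listed beside the members, were not called either. Of 20 further astrocyte and radial glia genes 19 were tested, with 14 log2 fold changes above 0 and 5 below and a median of 0.17. The most abundant per kilobase were Apoe, the lipid carrier that microglia also make (689 CPM per kb), and Glul, glutamine synthetase, which other cells of the brain express too (441 CPM per kb), with log2 fold changes of -0.06 and 0.16. The smallest p values were those of Ptprz1, a phosphatase of radial glia and precursors, at 12.2, 17.4, 5.84 and 15.5 CPM in KO pups 1 to 4 and 5.79, 3.84, 2.68 and 9.0003 CPM in WT pups 5, 1, 2 and 3 (1.27, adjusted p 0.243), and of Aldoc, the brain aldolase (0.90, adjusted p 0.415). As for Aqp4 and Gfap, KO pup 2 was the highest library and WT pup 2 the lowest. Of 22 further neuron genes 13 were tested, 9 above 0 and 4 below (median 0.35). Uchl1, a ubiquitin hydrolase, was the most abundant (34.5 CPM per kb, log2 fold change -0.07), and the neuropeptide gene Npy came next (1.91 CPM per kb), set by 5.18 CPM in KO pup 1 against 0.08 to 0.84 CPM in the others (log2 fold change 1.91, adjusted p 0.526). Camk2a, a kinase of excitatory synapses, averaged 6.54 ± 2.35 CPM in KO and 4.03 ± 1.77 CPM in WT (0.70, adjusted p 0.534). Of 10 genes of cerebellar granule neurons 6 were tested, 3 above 0 and 3 below (median 0.05). The transcription factor genes Zic2 (44.0 CPM per kb), Zic1 (6.02 CPM per kb) and Etv1 had log2 fold changes of -0.15, -0.12 and 0.22, with adjusted p values of 0.691 to 0.943.

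Further oligodendrocyte genes gave no common shift. Of 17 listed, 11 were tested, 6 above 0 and 5 below (median 0.05). Mal, a membrane proteolipid also found outside myelin, was the most abundant at 50.6 CPM per kb (log2 fold change 0.05), and Cspg4, the proteoglycan NG2 of precursors and pericytes, followed at 4.28 CPM per kb (-0.13). Lhfpl3, a transcript of oligodendrocyte precursors, did not overlap between the groups, at 0.53, 1.12, 0.65 and 0.60 CPM in KO pups 1 to 4 and 0.24, 0.19, 0.19 and 0.19 CPM in WT pups 5, 1, 2 and 3 (1.84, SE 0.63, adjusted p 0.288). Mobp, a late myelin gene, averaged 6.77 ± 2.16 CPM in KO and 11.6 ± 4.20 CPM in WT (-0.78, adjusted p 0.369).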

How the data were processed

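Per the submitters' processing notes, reads were aligned with STAR and counted with featureCounts on mouse GRCm38. The kit was stranded, per the labels' protocols. The sources used here give no versions, no annotation release and no setting for strand. For each library the authors deposited raw counts per gene, as whole numbers, and these are the unit used. Groups came from the sample titles. Symbols, coordinates and exon lengths came from GENCODE M21 (GRCm38), which named 25664 of 25700 identifiers, and the other 36 held 0.0223% of counts.

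The main test was run in edgeR 4.0.16 under R 4.3.3: filterByExpr with its defaults (minimum count 10, minimum total 15), TMM factors (0.978 to 1.026), genotype as the only term, the quasi-likelihood F test and Benjamini-Hochberg adjustment over 14154 genes with a threshold of 0.05. Log2 CPM used a prior count of 2. Alternatives used DESeq2 1.42.0, limma-voom (limma 3.58.1), other scalings, no filter, cage terms, the pup number, fewer libraries and thinned counts. The fit was tested on simulated counts. No 2 libraries were duplicates, since the chi-square per gene was at least 16.0 for each pair.

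The members and lists were chosen with earlier results of these data known, so scores and medians carry no p. Values in every library are given for the 4 members of a lineage with the highest level per kilobase and the 2 with the smallest p, and for others chosen after their values were seen. From each further list the 2 highest and 2 smallest p are named.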

Additional observations from a re-analysis of the deposited data

Results flagged for a closer look

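In 3 of the 62 groups of 4 pups compared, 1 library lay far from the others by Dixon's test, about as many as chance flags at 1 in 20. Fabp7 was flagged in KO for pup 3 (11.6 CPM) and in WT for pup 2 (5.27 CPM), each below the rest of its group. Dcx was flagged in KO for pup 4 (2.44 CPM), above the rest.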

How the results depend on the processing

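Without any 1 library the genes called over the whole table numbered 25 to 60 higher and 6 to 27 lower, against 39 and 16 with all libraries, and the members called stayed at 0. The higher count moved by over 1.5 times without KO pup 1 (60) or KO pup 2 (25), and the lower count without KO pup 1 (25), KO pup 3 (6) or WT pup 3 (27), or without KO pup 1 and WT pup 2 together (26), an alternative chosen after seeing the data. DESeq2 called 171 higher, 180 lower and 1 member. A cage term left 10 higher and 6 lower by the titles and 10 and 0 by the second labels, and 10 were higher within the KO cage by title. Without a filter 38 were lower. Same-numbered pups did not deviate together (r -0.03, 0.03 and -0.07), so the numbers pair nothing, and as a replicate block they left 11 higher, 0 lower and 0 members.

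The astrocyte median of 1.06 ran from 0.71 to 1.202 without any 1 library and was 0.36 with the cage term by the second labels. The neuron median of 0.27 ran from 0.12 to 0.44 and was -0.03 with the cage term by titles, and the oligodendrocyte median of -0.20 ran from -0.30 to 0.20. The log2 ratio of the summed astrocyte level, 0.08, was 0.87 without Gja1. The r of neuron and oligodendrocyte scores, 0.32, was 0.66 without KO pup 1.

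Uncalled members changed sign as follows. With the cage term by titles Slc1a3 was at -0.047, Rbfox3 at -0.12, Elavl3 at -0.54 and Sox10 at 1.99, and within the KO cage by title they were at -0.046, -0.12, -0.54 and 1.97. With the term by the second labels Slc4a4 was at 0.12, Stmn2 at 0.066, Gad1 at -0.27 and Elavl3 at -0.43. With the replicate block Ntsr2 was at -0.56 and Gad1 at -0.012, and limma-voom put Dcx at 0.22. Without any 1 library Slc4a4 ran from -0.33 to 0.023, Gjb6 from -1.19 to 0.096, Dcx from -0.9997 to 0.019, Elavl3 from -0.23 to 0.26, Sox10 from -0.89 to 0.19 and Bcas1 from -0.79 to 0.20. Without KO pup 1 and WT pup 2 together Slc4a4 was at 0.018, Elavl3 at -0.35, Sox10 at 0.15 and Bcas1 at 0.087. The cause of these changes was not tested. Of the 16 neuron members 8 did not pass the filter on low counts, and 2 of the 10 oligodendrocyte members did not.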
